A study of Mus musculus with 6 samples.

Results

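The enzymes described here remove superoxide and peroxides from cells, and they were compared between 2 kinds of reprogrammed mouse stem cell. They are the superoxide dismutases Sod1 and Sod2, catalase (Cat), the glutathione peroxidases Gpx2, Gpx3, Gpx7 and Gpx8, the peroxiredoxin Prdx3, sulfiredoxin (Srxn1) and the thioredoxin reductase Txnrd1. A probe set was taken for a gene when the platform annotation gave it exactly 1 gene symbol, equal to one of these 10 names. Each name matched 1 probe set, so the enzymes are 10 of 23344 probe sets, or 10 of 19308 named genes. The genes were listed with earlier results of these arrays known, so how many of them changed is a description of this list.

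One group was induced pluripotent stem (iPS) cells, which are somatic cells turned pluripotent by added factors. The other was nuclear transfer (ntES) embryonic stem cells, in which an egg reprograms a somatic nucleus. Both came from tail tip fibroblasts of G3 Terc-/- mice, which are generation 3 animals without the RNA subunit of telomerase, and both grew on feeder layers of mouse embryonic fibroblasts treated with mitomycin C. There were 3 arrays in each group, which the design text calls biological repeats for a cell line. No array of cells with Terc, of the starting fibroblasts or of feeders alone was analysed here. The sources used here give neither the number of lines nor the age of the mice, and if each group is 1 line, line and method of reprogramming cannot be told apart. The p-values then measure only the spread between these samples.

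Superoxide leaks from the respiratory chain and is formed by oxidases, and superoxide dismutases convert it to hydrogen peroxide. Catalase in peroxisomes splits hydrogen peroxide, glutathione peroxidases reduce it and lipid peroxides with glutathione, and peroxiredoxins reduce it with thioredoxin, which thioredoxin reductase recharges with NADPH. Peroxiredoxins of the typical kind are inactivated by excess peroxide and are repaired by sulfiredoxin. Several of these genes are known targets of NRF2 (gene Nfe2l2), a transcription factor that binds the antioxidant response element.

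In ntES cells 3 of the 10 enzymes rose and none fell at an adjusted p under 0.05 (limma, Benjamini-Hochberg over all probe sets). Gpx2 was 1.74-fold higher, catalase 1.41-fold and Srxn1 1.41-fold. The same rule called 11.3% of all probe sets, 5.19% as higher and 6.13% as lower in ntES cells. At an unadjusted p under 0.05 (limma) the counts for the 10 enzymes were also 3 higher and 0 lower. Of all 23344 probe sets, 2900 were higher and 2836 lower by that rule. The unmoderated linear model, which estimates each gene's spread from that gene alone, called Gpx2 alone, with 3.01% of all probe sets. The median difference of the 10 genes was 0.12 (log2, ntES minus iPS), against 0.038 over all probe sets. All 10 probe sets were at least as bright as the median probe set. A fit without the dimmer probe sets called 19.3% of the 11672 left, 910 as higher and 1340 as lower in ntES cells. The median difference of those left was -0.018, and the same 3 enzymes passed. The superoxide dismutases, Txnrd1, Prdx3 and the other glutathione peroxidases did not pass.

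The stretch before the transcription start of the 3 genes that rose is shown, beside those of Sod1 and Txnrd1, which hold the searched element but did not pass. The sequences are RefSeq's for GRCm38.p6, in which all 10 genes were matched, with 12 starts. Each is the 250 bases before the start, 5′ to 3′ on the gene's strand. Capitals mark TGACNNNGC, the core of the antioxidant response element, and TGANTCA, the core site of AP-1, each on either strand. The positions are chr12:76795555-76795804, minus strand, for Gpx2; chr2:152105274-152105523, plus strand, for Srxn1; chr2:103485154-103485403, minus strand, for Cat. They are chr16:90220512-90220761, plus strand, for Sod1, and chr10:82858956-82859205, plus strand, for the one of the 3 Txnrd1 starts with a match.
Gpx2: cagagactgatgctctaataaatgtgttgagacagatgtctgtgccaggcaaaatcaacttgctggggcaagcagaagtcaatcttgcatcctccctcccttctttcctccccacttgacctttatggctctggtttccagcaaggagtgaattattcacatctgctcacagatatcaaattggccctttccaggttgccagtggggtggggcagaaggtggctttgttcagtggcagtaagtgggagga
Srxn1: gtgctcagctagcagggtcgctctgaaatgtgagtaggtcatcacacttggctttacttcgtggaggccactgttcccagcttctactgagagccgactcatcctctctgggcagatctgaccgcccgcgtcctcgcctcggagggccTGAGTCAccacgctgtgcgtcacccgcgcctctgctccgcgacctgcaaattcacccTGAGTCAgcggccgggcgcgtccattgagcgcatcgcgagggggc
Cat: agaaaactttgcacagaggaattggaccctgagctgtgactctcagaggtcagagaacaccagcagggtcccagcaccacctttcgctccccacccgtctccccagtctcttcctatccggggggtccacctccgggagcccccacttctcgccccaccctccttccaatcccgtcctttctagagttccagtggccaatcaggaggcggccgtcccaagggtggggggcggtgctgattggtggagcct
Sod1: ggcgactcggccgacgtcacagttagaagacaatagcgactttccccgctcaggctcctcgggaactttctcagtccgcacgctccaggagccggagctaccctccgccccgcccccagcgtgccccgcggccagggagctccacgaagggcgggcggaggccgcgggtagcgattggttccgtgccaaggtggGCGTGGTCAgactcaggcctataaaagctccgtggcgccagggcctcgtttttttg
Txnrd1: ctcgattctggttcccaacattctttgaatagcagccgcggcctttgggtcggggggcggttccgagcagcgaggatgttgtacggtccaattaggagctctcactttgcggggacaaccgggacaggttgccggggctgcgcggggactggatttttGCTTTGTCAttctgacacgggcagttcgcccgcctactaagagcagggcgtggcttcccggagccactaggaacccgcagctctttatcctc

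The core TGACNNNGC was found at 2 of the 12 starts, with its first base 56 bases before the start of Sod1 and 92 before that of Txnrd1, both on the opposite strand. It is present in 10.2% of all 32851 such windows. Srxn1 was the only one of the 10 genes with TGANTCA, which occurs in 6.75% of all windows. It had this site at 102 and at 45 bases before its start, both as TGAGTCA. A looser form of the element, TGANNNNGC, which includes every TGACNNNGC, was chosen after the first search. It was found for 4 of the 10 genes (Gpx2, Srxn1, Sod1 and Txnrd1), at 5 of the 12 starts, and in 35.2% of all windows. At Srxn1 one looser match, TGAGTCAGC, overlaps the AP-1 core nearer to the start. GGGCGG, the GC box of many promoters without a TATA box, was present for 8 of the 10 genes. That was at 8 of the 12 starts, where 32.7% of all windows held it. Gpx2 and Gpx8 were without it, and Gpx2 also had no CpG dinucleotide in its window, where the median window had 6 and those of Srxn1 and Cat had 21 and 9. The matches describe letters in these windows and not bound sites.

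The superoxide dismutases did not pass the test. Sod1, the copper and zinc enzyme of the cytosol, read 12.04, 12.00 and 11.68 on the iPS arrays and 11.92, 12.01 and 12.19 on the ntES arrays (log2, replicates 1 to 3). The groups overlapped, with iPS replicate 3 the lowest and ntES replicate 3 the highest of the 6. The difference was 0.14 with a 95% confidence interval from -0.12 to 0.39 (adjusted p = 0.5). Sod2, the manganese enzyme of the mitochondrial matrix, read 11.13, 11.14 and 10.94 in iPS cells and 11.01, 11.20 and 11.41 in ntES cells. Its groups overlapped in the same way, and its difference was 0.14 (95% interval -0.11 to 0.38; adjusted p = 0.491). The upper ends of these intervals correspond to a 1.31-fold rise for Sod1 and a 1.30-fold rise for Sod2. Sod2 passed after quantile normalization, at 0.15 with an adjusted p of 0.0166, a setting that called 30.1% of all probe sets.

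Catalase was higher in ntES cells. It read 11.05, 11.05 and 10.89 in iPS cells and 11.26, 11.54 and 11.69 in ntES cells. The groups did not overlap, and the lowest ntES array lay 0.20 above the highest iPS array. The same separation, with ntES above, held for 13.6% of all probe sets. The difference was 0.50 ± 0.11 (log2, SE, n = 3 each; adjusted p = 0.0187, limma), a 1.41-fold rise with an interval from 1.19 to 1.68. The call of Cat was lost on leaving out any 1 of the iPS arrays (adjusted p = 0.0712, 0.0683 and 0.0671 for replicates 1 to 3) or ntES replicate 2 (0.103), and in the unmoderated test (0.171). Its difference lay between 0.40 and 0.62 over all 16 alternatives.

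**Figure D1:**
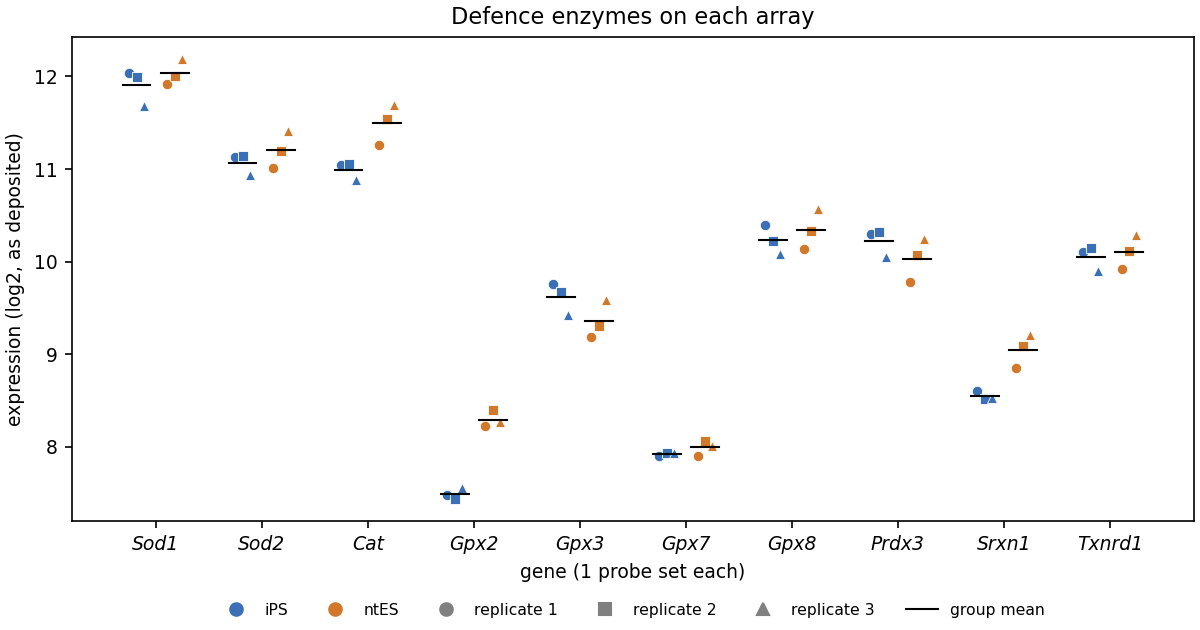
Deposited log2 expression (y axis) of the 10 enzymes (x axis) on the 3 iPS arrays (blue) and 3 ntES arrays (orange), with replicates 1 to 3 as circle, square and triangle and bars at the group means. The groups are apart for Cat, Gpx2 and Srxn1, where every ntES array lies above every iPS array, and overlap for the other 7 genes.

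Gpx2 had the largest difference of the 10 enzymes. It is a selenium-dependent glutathione peroxidase known from the epithelium of the gut. It read 7.48, 7.44 and 7.55 in iPS cells and 8.23, 8.40 and 8.27 in ntES cells. The arrays of each group lay close together, and a gap of 0.67 separated the groups. The difference was 0.80 ± 0.08 (log2, SE, n = 3 each; adjusted p = 0.000265, limma), or 1.74-fold with an interval from 1.54 to 1.98. Gpx2 passed under all 16 alternatives, with differences from 0.75 to 0.92 and adjusted p up to 0.0264, the last with the unmoderated test. In iPS cells its mean of 7.49 lay below 7.66, the mean of the median probe set, and in ntES cells its mean of 8.30 lay above it. Background that adds to a dim probe set makes a fold too small. On the other side, probe sets of like brightness had a median difference of 0.036, and Gpx2 was at 0.75 after median centring. Whether the fold of Gpx2 is understated or overstated was not tested.

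Gpx3, the secreted plasma enzyme and also a selenoprotein, differed in the other direction. It read 9.76, 9.67 and 9.42 in iPS cells and 9.18, 9.30 and 9.58 in ntES cells. The groups overlapped through iPS replicate 3, the lowest of its group, and ntES replicate 3, the highest of its group. The difference of -0.26 had an interval from -0.53 to 0.01 and did not pass (adjusted p = 0.219). Gpx3 passed as lower without ntES replicate 3, at -0.38 (adjusted p = 0.0367, where 21.6% of all probe sets passed), after quantile normalization (0.0223), with arrays brought to a common median and SD (0.0198), and with array weights (0.000132). The last 3 settings called 30.1%, 27.8% and 56.3% of all probe sets.

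Gpx7 and Gpx8, peroxidases of the endoplasmic reticulum that carry cysteine in place of selenocysteine, did not pass. Gpx7 read 7.91, 7.93 and 7.94 in iPS cells and 7.91, 8.07 and 8.01 in ntES cells, a difference of 0.070 (interval -0.11 to 0.25; adjusted p = 0.629). Its 3 iPS arrays had an SD of 0.017, the smallest of the 10 genes in either group. Gpx8 read 10.39, 10.22 and 10.09 in iPS cells and 10.13, 10.33 and 10.57 in ntES cells, with overlap. Its difference was 0.11 (interval -0.16 to 0.38; adjusted p = 0.608). Gpx7 passed only with array weights (adjusted p = 0.02) and Gpx8 only after quantile normalization (0.036), both as higher in ntES cells.

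Of the thioredoxin branch, Srxn1 rose. It read 8.60, 8.52 and 8.52 in iPS cells and 8.85, 9.08 and 9.21 in ntES cells. The groups were 0.25 apart, and the ntES arrays differed more among themselves (SD 0.18) than the iPS arrays (SD 0.048). The difference was 0.50 ± 0.10 (log2, SE, n = 3 each; adjusted p = 0.00998, limma), or 1.41-fold with an interval from 1.21 to 1.65. The call of Srxn1 was lost on leaving out iPS replicate 2 (adjusted p = 0.0628) or ntES replicate 2 (0.0695), and in the unmoderated test (0.111).

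Prdx3 and Txnrd1, the other enzymes of this branch, did not pass. Prdx3, the peroxiredoxin of mitochondria, read 10.30, 10.32 and 10.05 in iPS cells and 9.78, 10.07 and 10.24 in ntES cells. The groups overlapped, and the difference was -0.20 (interval -0.47 to 0.08; adjusted p = 0.375). It passed as lower with arrays at a common median and SD (0.0362) and with array weights (0.00643). Txnrd1, the cytosolic thioredoxin reductase and a selenoprotein, read 10.10, 10.15 and 9.90 in iPS cells and 9.92, 10.11 and 10.29 in ntES cells. Its difference of 0.058 was the smallest of the 10 (interval -0.19 to 0.30; adjusted p = 0.784), and it was -0.016 without iPS replicate 3 and -0.034 without ntES replicate 3. After median centring the difference of Txnrd1 was 0.0005. An exact two-sided permutation test of 3 against 3 arrays cannot go below p = 0.1, which Cat, Gpx2 and Srxn1 each reached.

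**Figure D2:**
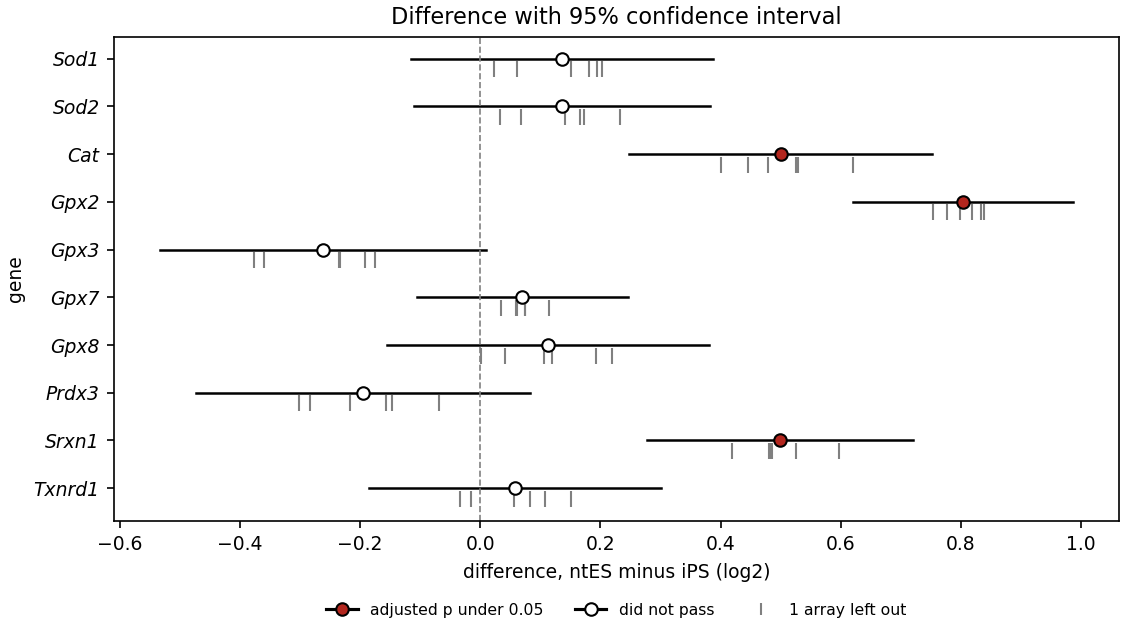
Difference ntES minus iPS (x axis, log2) of each enzyme (y axis), with its 95% confidence interval from the limma fit as a line, and grey ticks for the difference with each of the 6 arrays left out. Filled points (Cat, Gpx2, Srxn1) passed an adjusted p of 0.05, and among the open points Gpx3 at -0.26 and Prdx3 at -0.20 lie below 0.

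Within each group most of the enzymes shared a pattern over the arrays. All 10 were lowest on ntES replicate 1 among the ntES arrays, and 8 of 10 were highest on ntES replicate 3. Among the iPS arrays 7 of 10 were lowest on replicate 3. The median of the 10 deviations from the group mean was -0.19 on ntES replicate 1, 0.19 on ntES replicate 3 and -0.14 on iPS replicate 3. Probe sets of like brightness moved the same way as most of the enzymes. Among the 2335 brightest probe sets, the class of Cat, Gpx8, Sod1 and Sod2, the medians on these 3 arrays were -0.20, 0.20 and -0.13. In the class of Gpx2 and Gpx7 they were -0.036, 0.032 and -0.013. Gpx2 itself departed from this, at -0.071, -0.029 and 0.061, and Gpx7 was at -0.089, 0.018 and 0.011. The SD over all probe sets was smallest on ntES replicate 1 (1.51) and largest on ntES replicate 3 (1.74), and iPS replicate 3 had the smallest SD of its group (1.59). With ntES replicate 1 and iPS replicate 3 both left out, a setting added after seeing the data, the same 3 enzymes passed, at 0.57 for Cat, 0.87 for Gpx2 and 0.58 for Srxn1, with 12.8% of all probe sets.

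**Figure D3:**
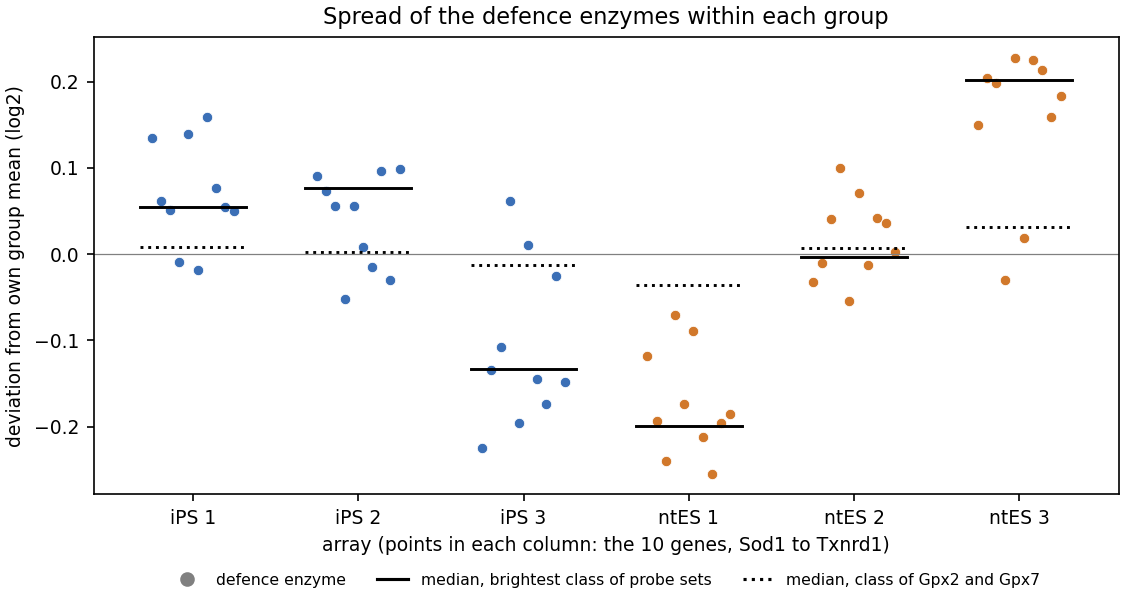
Deviation of each of the 10 enzymes from the mean of its own group (y axis, log2) on each array (x axis), with the median deviation of the brightest class of probe sets (solid line) and of the class of Gpx2 and Gpx7 (dotted line). On iPS 3 and ntES 1 most enzymes lie below 0 and on ntES 3 above it, near the solid line.

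Of 22 measured further enzymes and partners of peroxide and superoxide defence, 1 rose and 1 fell (9.09%; 3 and 4 at an unadjusted p under 0.05, limma), with a median of 0.037. Over all probe sets 11.3% passed, and the shares of these genes and of the 4 lists that follow, between 5.88% and 12.5%, are near or below that. The unadjusted counts stand beside 2900 higher and 2836 lower of all 23344 probe sets. Sesn1, a stress-induced sestrin, had a mean of 8.26 ± 0.09 on the iPS arrays and 8.76 ± 0.26 on the ntES arrays (log2 ± SD, n = 3 each; adjusted p = 0.0269, limma). Glrx5, a mitochondrial glutaredoxin of iron-sulfur cluster assembly, went from 9.61 ± 0.12 to 9.18 ± 0.17 (adjusted p = 0.0252). Sesn1 passed without ntES replicate 1 and without ntES replicate 3, and not without any of the other 4 arrays in turn (adjusted p from 0.087 to 0.108). It was also at 0.0506 after median centring and 0.213 with the unmoderated test. The call of Glrx5 was lost on leaving out iPS replicate 1 (0.113), iPS 2 (0.143) or ntES replicate 2 (0.084), and in the unmoderated test (0.169).

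Of 24 genes that control NRF2 or are known as its targets, 3 rose and none fell (12.5%; 6 and 1 at an unadjusted p under 0.05, limma), with a median of 0.095. Ugdh, which makes UDP-glucuronate, rose by 0.71 ± 0.14, Pgd, an NADPH-forming enzyme of the pentose phosphate pathway, by 0.66 ± 0.13, and Me1, an NADPH-forming malic enzyme, by 0.47 ± 0.11 (log2, SE). The other probe set of Me1 was at 0.34 with an adjusted p of 0.0505. Ugdh passed without each array in turn but not with the unmoderated test (0.154). The call of Pgd was lost on leaving out iPS replicate 1 (0.0516) or ntES replicate 2 (0.0587), and in the unmoderated test (0.157). Me1 did not pass without iPS replicate 1 (0.0676), 2 (0.0818) or 3 (0.0777), without ntES replicate 2 (0.11) or with the unmoderated test (0.176). Nfe2l2 itself, Nqo1 and Gclm were singled out after their values were seen. Nfe2l2 read 10.50, 10.48 and 10.34 in iPS cells and 10.61, 10.83 and 11.04 in ntES cells, without overlap, and did not pass at 0.39 (adjusted p = 0.0513). The quinone reductase Nqo1 was at 0.39 (0.0631), and Gclm, a subunit of the enzyme that starts glutathione synthesis, at -0.41 (0.0544). Of the 16 alternatives Nfe2l2 and Nqo1 each passed under 7 and Gclm under 10, in these directions. All 3 passed after quantile normalization, a setting that called 30.1% of all probe sets. None of them passed with the unmoderated test (adjusted p of 0.241 for Nfe2l2, 0.277 for Nqo1 and 0.264 for Gclm), and each passed in 1 of the 6 fits that left out an array. Nfe2l2 and Nqo1 were at 0.1 and 0.116 after median centring.

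Selenocysteine, which Gpx2, Gpx3 and Txnrd1 carry, is made and inserted by dedicated factors. Of 10 genes of selenoprotein synthesis and selenium supply, which include the uptake receptor Lrp8 and the selenocysteine lyase Scly, none rose and 1 fell (10%; 2 and 2 at an unadjusted p under 0.05, limma). That was Eefsec, the elongation factor for selenocysteine, with means of 10.70 ± 0.16 on the iPS arrays and 10.12 ± 0.18 on the ntES arrays (log2 ± SD, n = 3 each; adjusted p = 0.00878, limma). This call was lost on leaving out iPS replicate 1 (0.0623), iPS 2 (0.0589) or ntES replicate 2 (0.0606), and in the unmoderated test (0.13). Of 17 genes of peroxisomes, the organelle of catalase, 1 rose and 1 fell (11.8%; 3 and 3 at an unadjusted p under 0.05, limma). Acox3, a peroxisomal oxidase of branched fatty acids, was at 0.31 and Pex19, which delivers peroxisomal membrane proteins, at -0.39, with adjusted p of 0.0278 and 0.0495. Neither passed on leaving out iPS replicate 1, iPS 2 or ntES replicate 2, with adjusted p from 0.116 to 0.156 for Acox3 and from 0.178 to 0.215 for Pex19. Acox3 also did not pass without iPS replicate 3 (0.0817), after median centring (0.0649) or with the replicate number as a block (0.169), and Pex19 did not without ntES replicate 1 (0.095) or in the unmoderated test (0.241). Of 17 genes whose products form superoxide or hydrogen peroxide, Ero1a rose and none fell (5.88%; 2 and 1 at an unadjusted p under 0.05, limma). Ero1a, the oxidase of disulfide formation in the endoplasmic reticulum, rose by 0.65 ± 0.10 (log2, SE), passed without each array in turn and was at 0.068 with the unmoderated test.

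**Figure D4:**
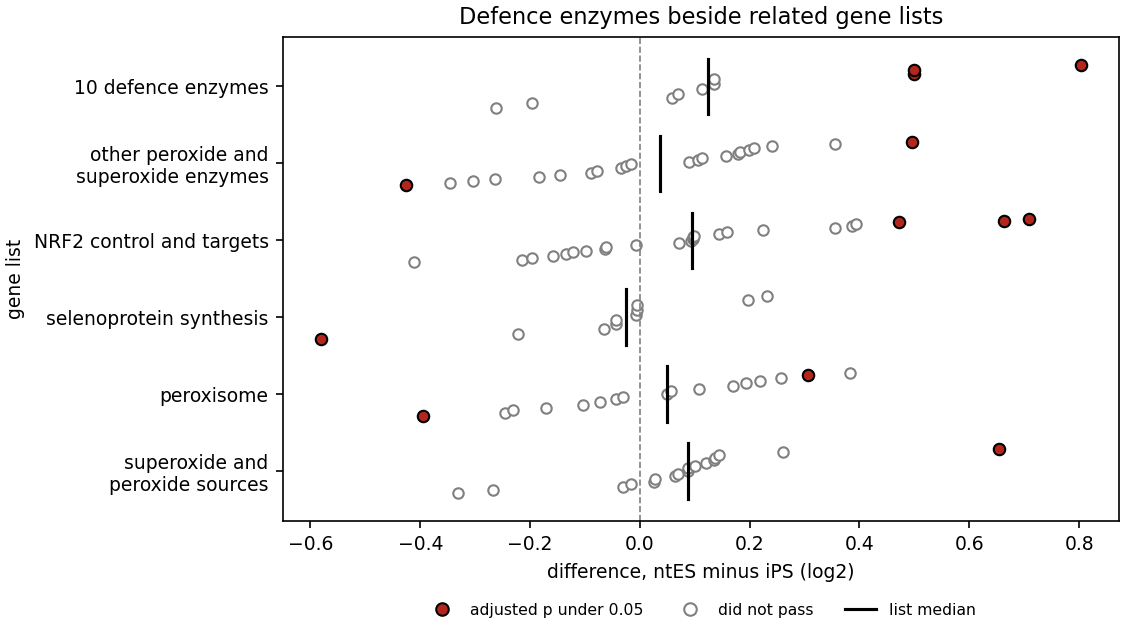
Difference ntES minus iPS (x axis, log2) of each gene in 6 lists (y axis), with filled points for an adjusted p under 0.05 and a bar at the list median. Of the defence enzymes 3 of 10 are filled, all to the right, and the medians of the other lists lie between -0.025 and 0.095.

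By the root mean square distance between the 6 log2 values, each less its own mean, the genes most like Cat were Arih2, Higd1a and Me1, at distances of 0.023, 0.025 and 0.025. Those most like Gpx2 were P3h2, A930004D18Rik and Chit1 (0.052 to 0.064), and those most like Srxn1 were Adat2, Krt19 and Lmo7 (0.027 to 0.035). The distance takes in both the difference between the groups and the differences among the arrays of a group.

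Every array is labelled Terc-/-, so the probe set of Terc cannot set one group against the other as a check of the labels. It read 7.62 to 7.90, on 5 of the 6 arrays above 7.66, the mean of the median probe set, and the sources used here do not say whether it lies in the deleted part of the gene. The labelled cell type was checked on its markers. Of 20 pluripotency markers none rose and 6 fell (30%, where 11.3% of all probe sets passed; 2 and 8 at an unadjusted p under 0.05, limma). Esrrb was at -0.79 and Dppa3 at -0.86 with one probe set and -0.40 with the other, and Pou5f1, Sox2 and Nanog were among those that did not pass. Of 26 markers of fibroblasts, the cells of the feeder layer, 8 rose and 1 fell (34.6%; 13 and 1 unadjusted), with Timp3 at 0.89, Postn at 0.74 and Thy1 at -0.60. Their mean log2 level was between 9.56 and 9.85 on the iPS arrays and between 9.81 and 10.08 on the ntES arrays. Of 16 markers of extraembryonic endoderm 5 rose, with Col4a1 at 0.44, and none fell (31.2%; 10 and 1 unadjusted), with mean levels of 7.97 to 8.02 and 8.16 to 8.20. Of 10 immune markers Lyz2 and Cd3e rose, by 1.19 and 0.50, and none fell (20%; 7 and 1 unadjusted), with mean levels of 6.88 to 6.90 and 7.11 to 7.21, and 8 of these 10 probe sets were dimmer than the median probe set. In the fit without probe sets dimmer than the median one, 19.3% of those left passed. Unadjusted, 2900 of all 23344 probe sets were higher and 2836 lower in ntES cells. Most members of each marker list did not pass. Differences were above 0 for 23 of 26 fibroblast, 13 of 16 endoderm, 8 of 10 immune and 6 of 20 pluripotency markers. This held for 13757 of all 23344 probe sets. The list medians were 0.28, 0.28, 0.23 and -0.19 in that order, against 0.038 over all probe sets. The part of the cells these markers stand for in the differences of Cat, Gpx2 and Srxn1 was not tested. In such bulk RNA, more cells of a type and more RNA per cell cannot be told apart.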

How the data were processed

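Total RNA from 6 cultures was labelled with biotin through the WT Terminal Labeling Kit and measured on Affymetrix arrays, per the labels' protocols, and scanned with GCOS 1.4 according to the submitters' processing notes. The deposited values are log2 expression per probe set, a scale taken from the values, which run from 3.61 to 13.7. The sources used here do not give background correction, normalization or build, so differences between arrays may carry unremoved technical spread. Array medians lay within 0.088 of each other, so no further scaling was applied. All 3 ntES medians (7.67 to 7.70) were above all 3 iPS medians (7.61 to 7.64), and the reported differences include this offset. Median centring, which removes it, put Cat at 0.44, Gpx2 at 0.75, Srxn1 at 0.44 and Txnrd1 at 0.0005. The number of arrays limits the precision.

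Groups came from the titles. The comparison, ntES minus iPS, was tested by limma 3.58.1 (lmFit, eBayes; R 4.3.3) over all 23344 probe sets, without covariates, with Benjamini-Hochberg adjustment and a threshold of 0.05. The fit was tested on simulated data with independent noise for each value. Such data lack the spread that probe sets of an array share, so they do not measure error rates here. SE and 95% intervals are limma's. The platform annotation gave 1 symbol for 20746 probe sets, several for 1183 and none for 1415. In lists, a gene was read by its probe set of highest mean.

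The members and lists were chosen with earlier results of these data known. Named were all members and, of each other list, up to 5 passing genes (3 for cell markers), with those of most like pattern. Nfe2l2, Nqo1, Gclm, Lrp8, Scly, Pou5f1, Sox2, Nanog and the chromosomal neighbours were named outside this rule, with their values seen. Alternatives were quantile normalization, median centring, a common median and SD, leaving out dim probe sets or those without 1 symbol, array weights, robust priors with an intensity trend, the replicate number as a block, an unmoderated test, a threshold of 0.01, other probe set rules and leaving out each array. Leaving out the array of narrowest spread in each group was added after seeing the data. Python 3.11.15 with scipy 1.17.1 did the rest.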

Additional observations from a re-analysis of the deposited data

How the results depend on the processing

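Gpx2 passed under all 16 alternatives, Cat under 11 and Srxn1 under 13, and none of these 3 changed sign. The 16 include the setting added after seeing the data, under which all 3 passed. They do not include the threshold of 0.01, at which Gpx2 and Srxn1 passed and Cat did not. Of the 10 enzymes, the number that passed was 3 in the reported fit, 6 after quantile normalization, 5 with a common median and SD, 6 with array weights and 1 with the unmoderated test. It lay between 1 and 4 when each array was left out in turn. Over all probe sets 2643 passed, and this became 7035 after quantile normalization, 6483 with a common median and SD, 13147 with array weights, 703 with the unmoderated test and 1150 at a threshold of 0.01. Leaving out each array gave 1014 (without ntES replicate 2) to 5044 (without ntES replicate 3), with 1134 and 1042 without iPS replicates 1 and 2. The share called as higher went from 45.9% to 30.1% with median centring and 35.4% with a common median and SD, and to 60.1% with array weights and 59% without ntES replicate 1. Over the other alternatives it lay between 37.7% and 50.9%. Txnrd1 turned sign when an array was left out, to -0.016 without iPS replicate 3 and -0.034 without ntES replicate 3, and reached 0.15 without ntES replicate 1. The cause of these changes was not tested. Array weights used limma's gene-by-gene algorithm, because the default one stopped before it converged. Deviations of same-numbered arrays of the 2 groups from their group means had correlations of -0.43, -0.10 and -0.72. Those of iPS replicate 3 and ntES replicate 1, the arrays of narrowest spread in each group, had a correlation of 0.69. Such deviations carry the spread of each array, so they cannot show whether same-numbered samples were handled together. With the replicate block 1983 probe sets passed, as did 3 of the 10 enzymes. The brightest probe set or the mean of a gene's probe sets gave 3 enzymes as well. The log2 values carry no measure of signal over background, so what dim signal limits could not be set out beyond Gpx2's position near the median probe set.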

Other observations

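The neighbours of the 3 rising enzymes along the chromosome were read in the gene order of GRCm38.p6, with up to 5 measured genes on each side. Of the 10 genes around Cat on chromosome 2, none passed by limma (0 higher and 1 lower at an unadjusted p under 0.05), and their differences ran from -0.25 for the acetyltransferase gene Nat10 to 0.16 for Abtb2, with a median of 0.037. Of the 10 around Gpx2 on chromosome 12, 1 passed, where 11.3% of all probe sets did (2 higher and 2 lower unadjusted). This was Rab15, which lies next to Gpx2 and encodes a small GTPase of endosomes. It rose by 0.44 (adjusted p = 0.0109, limma), and the median of the 10 was 0.096. Of the 10 around Srxn1, also on chromosome 2, the riboflavin transporter gene Slc52a3 fell by 0.71 (adjusted p = 0.000339, limma). The others did not pass (1 higher and 1 lower of the 10 unadjusted), and the median was 0.087. Of all 23344 probe sets, 2900 were higher and 2836 lower at an unadjusted p under 0.05 (limma). The medians around the 7 enzymes that did not pass lay between -0.0031 and 0.15, and these values are a description with no test.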
